A study of Mus musculus with 12 samples.

Results

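The NOTCH pathway genes described here are 9 mouse genes, Notch1, Notch2, Notch3, Jag1, Lfng, Hes1, Hey1, Heyl and Nrarp, chosen by name as receptors, a ligand, a receptor modifier and transcriptional targets of the pathway. They are 9 of the 49671 genes counted in each library. RNA-seq was performed on NIH 3T3 cells, a mouse embryonic fibroblast line, in 4 groups of 3 libraries. The cells carried either the AllStars negative control siRNA or an siRNA that targets all isoforms of Lap2, the product of Tmpo. They were kept in medium with 0.3% FBS (serum-starved) or received 15% FBS for 45 min (serum-stimulated), so that every group had been transfected and serum-starved. All libraries come from the same cell line, and the control siRNA in the same serum condition is the reference for the Lap2 siRNA. The labels number the libraries of each group 1 to 3 without saying whether they were separate cultures, so the p-values measure the spread between these libraries, which may be technical.

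NOTCH receptors are transmembrane proteins that are activated by ligands of the Jagged and Delta families on neighbouring cells. Binding leads to cleavage by an ADAM protease and then by γ-secretase, and the released intracellular domain joins RBPJ and a Mastermind protein on DNA. The best known target genes encode basic helix-loop-helix repressors of the HES and HEY families. In fibroblasts, Hes1 is also known as a serum-responsive gene. Its product represses its own promoter and its mRNA is short-lived, and its level is known to pulse.

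Short motifs, among them letters bound by factors of this pathway, were looked for close to the start sites of the members. No promoter was available for Hes1, Hey1 or Heyl. RefSeq promoters on GRCm38.p6 (250 bases before to 50 after the start) matched 6 of the 9 genes, Notch1, Notch2, Notch3, Jag1, Lfng and Nrarp, and were searched on both strands. The RBPJ core TGGGAA was found in Lfng only among these 6, at 2 places, against 25.6% of the 32851 promoters of the table. The N box CACNAG, to which HES proteins bind, occurred in 5 of the 6 and in 42.5% of all promoters. The core TGACG of the cAMP response element was present in Jag1, Notch3 and Nrarp and in 20.8% of all promoters. The SRF binding site (CArG box) was in none of the 6 and in 1.63% of all promoters. The sites of Lfng and Jag1, the 2 members called lower with Lap2 siRNA at either FBS level, are shown 5′ to 3′ on the strand of the gene, with the matched letters in capitals. Where the match is on the other strand, the capitals spell its reverse complement. Positions count from the RefSeq start, which for both genes lies inside the gene bounds given below.
Lfng, RBPJ core at position -108 from the start, chr5:140607221-140607250: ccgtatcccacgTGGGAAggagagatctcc
Lfng, RBPJ core on the other strand at position -135 from the start, chr5:140607194-140607223: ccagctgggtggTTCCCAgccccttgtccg
Lfng, N box on the other strand at position -181 from the start, chr5:140607148-140607177: aggcgggacaggCTCGTGcacaaagggggc
Jag1, cAMP response element core on the other strand at position -167 from the start, chr2:137116671-137116699: caggcgggcacgCGTCAttgtgttacctg
These matches describe the letters in the windows and were not tested against the changes in mRNA.

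The libraries held 18026298 to 26265253 counts. Differential expression was tested with edgeR's quasi-likelihood test over the 18668 genes that had more than 1 count in 3 or more libraries, with Benjamini-Hochberg adjustment over all of them, and a gene was called at an adjusted p under 0.05. Of the 9 genes, 7 passed this filter. Values per library are given as normalized counts, that is, counts per TMM-scaled library size, multiplied by the mean size. Tmpo had 2775 to 3264 normalized counts in the 6 control libraries and 607 to 1175 in the 6 Lap2 siRNA libraries, with no overlap. Of 12 fibroblast markers, 11 were above a mean of 1 CPM, and of 8 endothelial and 6 epithelial markers none was (0 genes). Of 6 haematopoietic markers 1 was (Cd68), and of 5 neural markers 4 were (Nes, Map2, Tubb3 and Gfap), at a sum of at most 39.7 CPM in any library. The summed fibroblast markers were lower with Lap2 siRNA, at 25020 to 33980 CPM against 41370 to 46959 CPM with control siRNA. Of the 11 tested, 8 were called lower and 2 higher (Fn1 and S100a4) in 0.3% FBS, beside 18.6% and 17.8% of all tested genes. In 15% FBS 9 were lower and none higher, beside 12.1% and 11.4%. Mitochondrially encoded genes took 3.56% to 3.82% of the counts in stimulated Lap2 siRNA libraries against 2.69% to 3.20% in stimulated controls, with no overlap, and 3.24% to 3.95% against 3.00% to 3.50% in starved ones, which overlapped. The part of these markers and of the mitochondrial share in the results was not tested. In such bulk samples, fewer cells that express a gene and less RNA of it per cell cannot be told apart.

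Serum changed the ligand, the modifier and Hes1 together. With control siRNA, 3 of the 7 tested genes were called higher (Jag1, Lfng and Hes1) and none was called lower (0 at an unadjusted p under 0.05 and 0 by DESeq2, but 2 under scaling to total counts, Notch1 and Notch2), beside 15.6% of all tested genes called higher, 13.9% lower and 29.5% in either direction. The median log2FC of the 7 was 0.28, beside -0.01 over all tested genes. This median is the value of Hey1, which was hardly detected (SE 1.04). In Lap2-depleted cells 4 were called higher (Jag1, Lfng, Hes1 and Notch3) and 1 lower (Notch2), beside 18.3%, 14.9% and 33.2% of all genes. The median of the 7 was 0.85, beside 0.00 over all genes. Lap2 siRNA in 0.3% FBS lowered 3 of the 7 (Jag1, Lfng and Notch3) and raised none (0 at an unadjusted p under 0.05 and 0 by DESeq2), beside 18.6% of all genes lower, 17.8% higher and 36.5% in either direction. The median was -0.52, again the value of Hey1 (SE 1.13), beside 0.01. In 15% FBS it lowered 3 (Jag1, Lfng and Notch2) and raised 1 (Hes1), beside 12.1%, 11.4% and 23.4%, with a median of -0.67, beside 0.02. Both serum comparisons and both siRNA comparisons draw on the same 12 libraries, and each serum comparison shares libraries with each siRNA comparison.

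**Figure D1:**
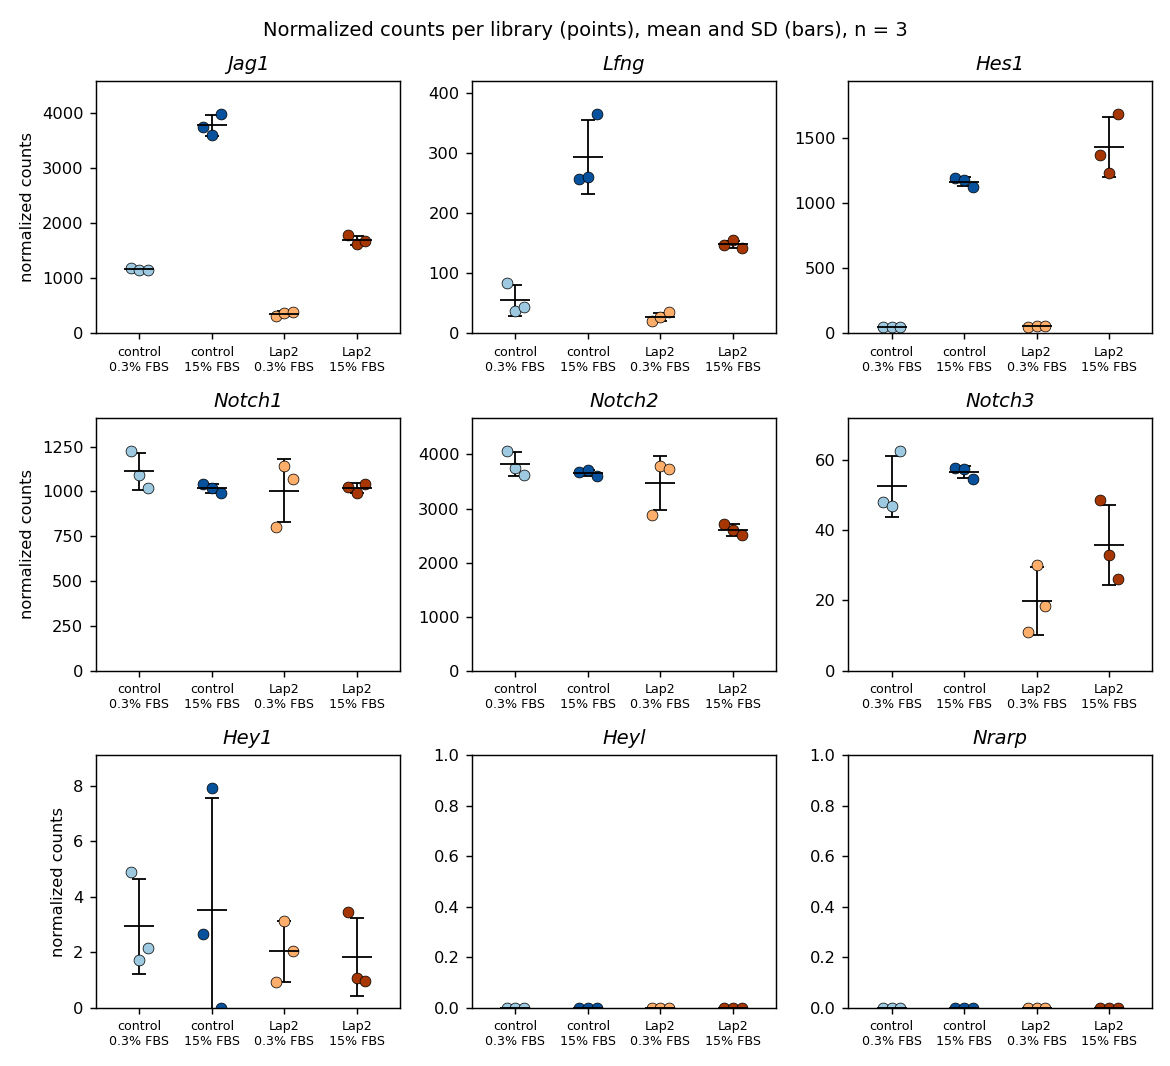
Normalized counts (linear axis, different for each gene) of the 9 genes in the 4 groups. Points are the 3 libraries of a group, in order of their number, and bars are the mean and SD; the SD bar of Hey1 in serum-stimulated control cells reaches below 0 and is cut off at the axis. Jag1 and Lfng were higher in 15% FBS and lower with Lap2 siRNA in each serum condition, Hes1 was low in every serum-starved library, and Heyl and Nrarp were at 0.

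Jag1 encodes a transmembrane ligand that activates NOTCH receptors on adjacent cells. It lies on the minus strand of chromosome 2, from 137081456 to 137116644 (mm10), and no annotated gene overlaps its exons. In serum-starved control siRNA treated cells the libraries had 1179, 1157 and 1157 normalized counts. After serum they had 3732, 3597 and 3976. Lap2-depleted cells had 317, 370 and 396 in 0.3% FBS, and 1781, 1625 and 1669 in 15% FBS. No group overlapped another: the lowest values were those of serum-starved Lap2-depleted cells, and stimulated Lap2-depleted cells stood above starved but far below stimulated control cells. Lap2 siRNA left 30.9% of the control level in 0.3% FBS and 44.9% in 15% FBS. The log2FC was -1.69 in 0.3% FBS (SE 0.08, edgeR adjusted p = 1.4e-17) and -1.16 in 15% FBS (SE 0.07, edgeR adjusted p = 2.1e-14).

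Serum raised Jag1 3.24-fold with control siRNA (log2FC 1.69, SE 0.07, edgeR adjusted p = 1.1e-19). In Lap2-depleted cells it rose 4.69-fold (log2FC 2.23, SE 0.08, edgeR adjusted p = 1.3e-21). The response in Lap2-depleted cells was larger by 0.54 on the log2 scale (95% interval 0.32 to 0.75, edgeR adjusted p = 4.3e-04), whereas the level they reached was lower. The gain in normalized counts was 2604 between the group means of control cells and 1331 between those of Lap2-depleted cells, so that the sign of this difference depends on whether it is taken as a ratio or as a number of counts. Jag1 was the member called higher in this comparison and Notch2 the member called lower, 1 each of 7, beside 7.09% of all genes called higher, 6.51% lower and 13.6% in either direction. Each of these Jag1 calls was made under all alternatives tried.

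Lfng encodes Lunatic fringe, a glycosyltransferase that adds sugars to NOTCH receptors and so changes which ligands activate them. It lies on the plus strand of chromosome 5, from 140607320 to 140615545, and carries the 2 RBPJ core matches shown above. Its libraries had 84.4, 37.3 and 43.1 normalized counts in serum-starved control cells and 256, 259 and 365 after serum. In Lap2-depleted cells they had 21.1, 27.0 and 35.0 in 0.3% FBS and 147, 155 and 142 in 15% FBS. The groups did not overlap, but the highest serum-starved control library lay well above the other two of its group, which were close to the highest starved Lap2 siRNA library. Serum raised Lfng 5.34-fold with control siRNA (log2FC 2.42, SE 0.21, edgeR adjusted p = 6.3e-12). The rise was 5.35-fold in Lap2-depleted cells (log2FC 2.42, SE 0.25, edgeR adjusted p = 4.7e-10).

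The difference between these responses was 0.00 on the log2 scale, with a 95% interval from -0.66 to 0.67. Lap2 siRNA lowered Lfng in 15% FBS by 0.98 on the log2 scale (SE 0.18, edgeR adjusted p = 6.2e-05), to 50.6% of control. In 0.3% FBS the log2FC was -0.99 (SE 0.28, edgeR adjusted p = 0.0037), or 50.5% of control. This call rested on 1 library: without control 0.3% FBS replicate 1 the log2FC was -0.52 (edgeR adjusted p = 0.139).

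Hes1 encodes the basic helix-loop-helix repressor best known as a direct NOTCH target. It lies on the plus strand of chromosome 16, from 30064384 to 30067796. Control siRNA treated cells had 47.1, 52.0 and 52.9 normalized counts in 0.3% FBS and 1187, 1178 and 1125 after serum. Lap2-depleted cells had 52.3, 60.3 and 54.6 in 0.3% FBS and 1365, 1231 and 1681 after serum. Every stimulated library was far above every starved one, the starved groups overlapped, and the 3 stimulated Lap2 siRNA libraries were above the 3 stimulated control libraries. The rise was 22.9-fold with control siRNA (log2FC 4.52, SE 0.14, edgeR adjusted p = 5.5e-25) and ranked 110 by absolute log2FC among the 18668 tested genes. In Lap2-depleted cells it was 25.6-fold (log2FC 4.68, SE 0.14, edgeR adjusted p = 1.8e-25) and ranked 72.

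Hes1 was thus the member with the strongest serum response under each siRNA, and the difference of the responses was 0.16 on the log2 scale, with a 95% interval from -0.25 to 0.57 (edgeR adjusted p = 0.69). Lap2 siRNA gave a log2FC of 0.14 in 0.3% FBS (SE 0.18, edgeR adjusted p = 0.61). In 15% FBS Hes1 was higher by 0.29 (SE 0.09, edgeR adjusted p = 0.011). Without Lap2 siRNA 15% FBS replicate 3, which had 1681 normalized counts, this log2FC was 0.14 and was not called (edgeR adjusted p = 0.28). In 15% FBS the ligand gene Jag1 was thus at 44.9% of control with Lap2 siRNA, beside 123% for Hes1.

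**Figure D2:**
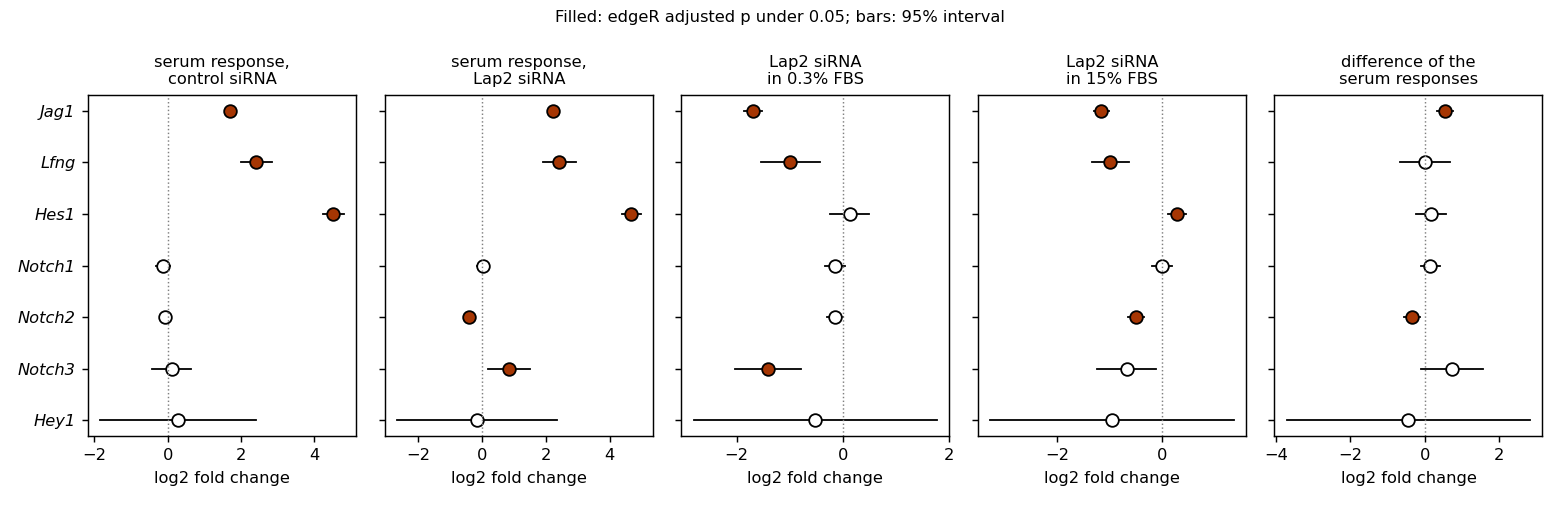
Log2 fold changes of the 7 tested genes in the 5 comparisons (x axis, with a different range in each panel), with 95% intervals as bars; filled points are called at an edgeR adjusted p under 0.05. Jag1 and Lfng are to the right of 0 for serum and to the left of 0 for Lap2 siRNA, while the interval of Hes1 with Lap2 siRNA in 0.3% FBS spans 0.

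Hey1, a repressor of the related HEY family, was hardly detected, with 0 to 8 counts in a library. Its mean was 2.93 ± 1.72 normalized counts (SD, n = 3) in starved and 3.53 ± 4.03 (SD, n = 3) in stimulated control cells, and 2.03 ± 1.10 (SD, n = 3) and 1.83 ± 1.42 (SD, n = 3) in Lap2-depleted cells. The groups overlapped in all 4 comparisons and the standard errors of its log2FC were above 1, so that a change in Hey1 was not detectable at this depth. Heyl, another HEY family gene, had 0 counts in all 12 libraries, which allows at most 0.114 to 0.166 CPM by library (3 counts, counting error only). Nrarp encodes an ankyrin repeat protein that is induced by NOTCH and limits its signalling. It also had 0 counts in all 12 libraries, with the same limits. Exons of an antisense gene, Gm38287, cover 79.4% of the exon bases of Nrarp, and Gm38287 had 0 counts as well. Whether the strand of the reads was used in counting is not given in the sources used here. Of the 90 protein-coding genes with more than 75% of their exon bases under exons of the other strand, 21 (23.3%) were at 0 in every library, beside 30.8% of the 16480 genes with no such cover, 9.26% of those with up to 50% covered and 11.5% of those with 50% to 75% covered. The part of this overlap in the 0 counts of Nrarp was not tested.

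Among the receptors, Notch2 was the most abundant. Per kb of exon, Notch2 had a level of 16.8 ± 0.98 CPM (SD, n = 3) in starved control cells, Notch1 3.71 ± 0.35 (SD, n = 3) and Notch3 0.308 ± 0.051 (SD, n = 3). On this per-length scale Notch2 made up 80.7%, Notch1 17.8% and Notch3 1.49% of the sum of the 3 receptors. These shares rest on merged exon lengths and on reads of all isoforms.

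Notch2 lies on the plus strand of chromosome 3, from 98013527 to 98150361. Its libraries ranged from 3629 to 4063 normalized counts in starved and from 3595 to 3713 in stimulated control cells. The Lap2 siRNA libraries had 2888 to 3779 in 0.3% FBS and 2503 to 2716 in 15% FBS. The stimulated Lap2-depleted libraries were the lowest of the 12, below every library of the other groups. Serum gave a log2FC of -0.06 with control siRNA (edgeR adjusted p = 0.63) and of -0.41 in Lap2-depleted cells (SE 0.08, edgeR adjusted p = 5.3e-05). With Lap2 siRNA the log2FC was -0.14 in 0.3% FBS (edgeR adjusted p = 0.16) and -0.49 in 15% FBS (SE 0.08, edgeR adjusted p = 7.2e-06). The difference of the serum responses was -0.35 (95% interval -0.57 to -0.13, edgeR adjusted p = 0.024). It was no longer called when any of 5 libraries was left out: control 0.3% FBS replicate 3 (adjusted p = 0.0544), control 15% FBS replicate 2 (0.0578), Lap2 0.3% FBS replicate 2 (0.0579) or 3 (0.0537), or Lap2 15% FBS replicate 2 (0.0547). The log2 difference in these fits was between -0.35 and -0.31.

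Notch1 varied little between the groups. It lies on the minus strand of chromosome 2, from 26457903 to 26516663, and 2 noncoding genes, 0610009E02Rik and Gm13568, overlap its exons on the other strand. Its libraries ranged from 1019 to 1225 and from 991 to 1043 normalized counts in starved and stimulated control cells, and from 803 to 1141 and from 989 to 1040 in Lap2-depleted cells. All groups overlapped and Notch1 was called in none of the 5 comparisons by edgeR (0 calls, and 0 at an unadjusted p under 0.05) or by DESeq2. Its log2FC was -0.13 and 0.02 for serum with control and Lap2 siRNA, and -0.15 and 0.00 for Lap2 siRNA in 0.3% and 15% FBS. The 95% interval for Lap2 siRNA in 15% FBS was -0.19 to 0.19. Scaling to total counts and upper-quartile normalization gave a serum log2FC of -0.34 and -0.22 with control siRNA, called lower (edgeR adjusted p = 0.0031 and 0.049).

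The share of Notch2 in the sum of the receptors was 76.1% ± 0.7 (SD, n = 3) in stimulated Lap2-depleted cells, with libraries from 75.3% to 76.6%. The libraries of the other groups lay between 80.4% and 82.2%. The share of Notch1 was 22.5% ± 1.0 (SD, n = 3) in that group and 16.9% to 18.5% in the other libraries. The shares were computed from the levels above and were not tested separately.

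Notch3, a receptor typical of vascular mural cells, was the least abundant of the receptors among the members. It lies on the minus strand of chromosome 17, from 32120820 to 32166880, and an antisense gene, Gm17276 (0 counts), overlaps its exons. Control siRNA treated cells had 48.1, 46.8 and 62.6 normalized counts in 0.3% FBS and 57.7, 57.4 and 54.6 in 15% FBS. Lap2-depleted cells had 11.0, 30.2 and 18.5 in 0.3% FBS and 48.5, 32.9 and 26.1 in 15% FBS. All starved Lap2 siRNA libraries were below all starved control libraries, while those in 15% FBS reached from the starved Lap2 range up to just below the stimulated controls. Lap2 siRNA in 0.3% FBS gave a log2FC of -1.40 (SE 0.31, edgeR adjusted p = 2.8e-04), or 37.8% of control.

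In 15% FBS the log2FC of Notch3 was -0.67 (SE 0.28) and was not called (edgeR adjusted p = 0.077), although the groups did not overlap. It was called in 3 alternatives: in the fit of the 2 groups alone, at -0.68 (edgeR adjusted p = 0.032), without Lap2 15% FBS replicate 1, at -0.94 (edgeR adjusted p = 0.029), and without Lap2 0.3% FBS replicate 1, at -0.68 (edgeR adjusted p = 0.037). Serum gave 0.12 with control siRNA (edgeR adjusted p = 0.81) and 0.85 in Lap2-depleted cells (SE 0.32, edgeR adjusted p = 0.037), where the groups overlapped. This rise was not called without Lap2 0.3% FBS replicate 1 (log2FC 0.52, adjusted p = 0.22) or 3 (0.79, adjusted p = 0.094), nor without Lap2 15% FBS replicate 1 (0.58, adjusted p = 0.24) or 2 (0.90, adjusted p = 0.056). DESeq2, scaling to total counts, upper-quartile normalization and a fit of the 2 groups alone did not call it either (log2FC 0.62 to 0.84, adjusted p from 0.054 to 0.12). The difference of the serum responses was 0.73, with a 95% interval from -0.11 to 1.57 (edgeR adjusted p = 0.28). The summed smooth muscle and pericyte markers, of which 5 of 7 were above 1 CPM, were at 509 to 622 CPM and 2644 to 2757 CPM in starved and stimulated control cells and at 277 to 288 and 922 to 945 CPM in Lap2-depleted cells. The sum follows Acta2 and Tagln. Of the 7 markers, 3 were called lower and 1 higher with Lap2 siRNA in 0.3% FBS, beside 18.6% and 17.8% of all tested genes. In 15% FBS 4 were lower and 1 higher, beside 12.1% and 11.4%. The pericyte marker Rgs5 was the one called higher, by 1.27 and 0.84 on the log2 scale (edgeR adjusted p = 1.0e-05 and 0.0054), and Myh11 and Des were not called. Their part in the results for Notch3 and Jag1 was not tested.

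**Figure D3:**
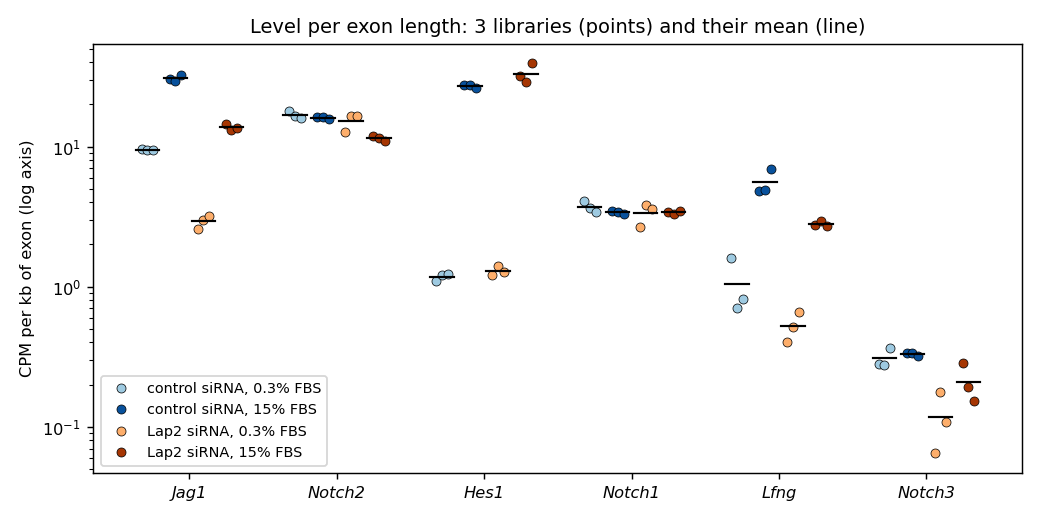
Level per exon length (CPM per kb of merged exon, log axis) of the 6 genes with more than a few counts in every group. Points are the 3 libraries of a group and lines their mean. Jag1 and Hes1 exceed Notch2 in stimulated control cells, and the group means of Notch1 lie between 3.35 and 3.71.

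The order of the levels per kb of exon changed with serum. In starved control cells it was Notch2, Jag1 (9.47 CPM per kb), Notch1, Hes1 (1.18), Lfng (1.04), Notch3 and Hey1, and only the libraries of Hes1 and Lfng overlapped among neighbours with counts. After serum, Jag1 (30.7) and Hes1 (27.1) stood above Notch2 (16.1), followed by Lfng (5.55), Notch1 (3.39), Notch3 (0.332) and Hey1, with no overlap among these. In starved Lap2-depleted cells Notch2 (15.2) was followed by Notch1 (3.35) and Jag1 (2.94), whose libraries overlapped, then by Hes1 (1.30), Lfng (0.525) and Notch3 (0.117). In stimulated Lap2-depleted cells Hes1 (33.2) came first, before Jag1 (13.8), Notch2 (11.5), Notch1 (3.39), Lfng (2.80) and Notch3 (0.210), with no overlap among neighbours. Jag1 thus passed from the level of Notch1 to above that of Notch2 within Lap2-depleted cells.

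The genes with patterns most like those of Hes1, Jag1, Lfng and Notch3 were ranked over the 12 libraries by the root mean square difference of log2 CPM, each gene centred on its mean. There were 10026 candidates averaging 100 or more normalized counts (10027 for Notch3). For Hes1 they were Klf10 (0.22), Junb (0.27), Plk3 (0.29), Zfp36 (0.30) and Gadd45b (0.31), beside a spread of Hes1 itself of 2.28. All 5 rose with serum by a log2FC between 3.82 and 4.94 under either siRNA. For Jag1, with a spread of 1.22, the nearest was Vgll3 (0.15), which encodes a cofactor of TEAD transcription factors. Its log2FC was 1.42 and 2.05 with serum and -1.77 and -1.14 with Lap2 siRNA. Next came Myl9 (0.25), a myosin light chain gene, then Tmem47 (0.29), Sik1 (0.30) and Pard6b (0.32).

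For Lfng, with a spread of 1.32, they were Irx3 (0.28), Utp14b (0.31), Klf7 (0.32), Mob3a (0.34) and Rel (0.35). For Notch3, with a spread of 0.68, they were Plppr3 (0.22), Adam12 (0.25), Gpc6 (0.26), Negr1 (0.26) and Arhgap31 (0.26), each lower with Lap2 siRNA in 0.3% FBS by a log2FC between -1.53 and -1.17. Among the members, the closest were Notch1, which varied little, and Notch2 (0.20), and then Jag1 and Lfng (0.46). The points share the libraries, and these values are a description of likeness.

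**Figure D4:**
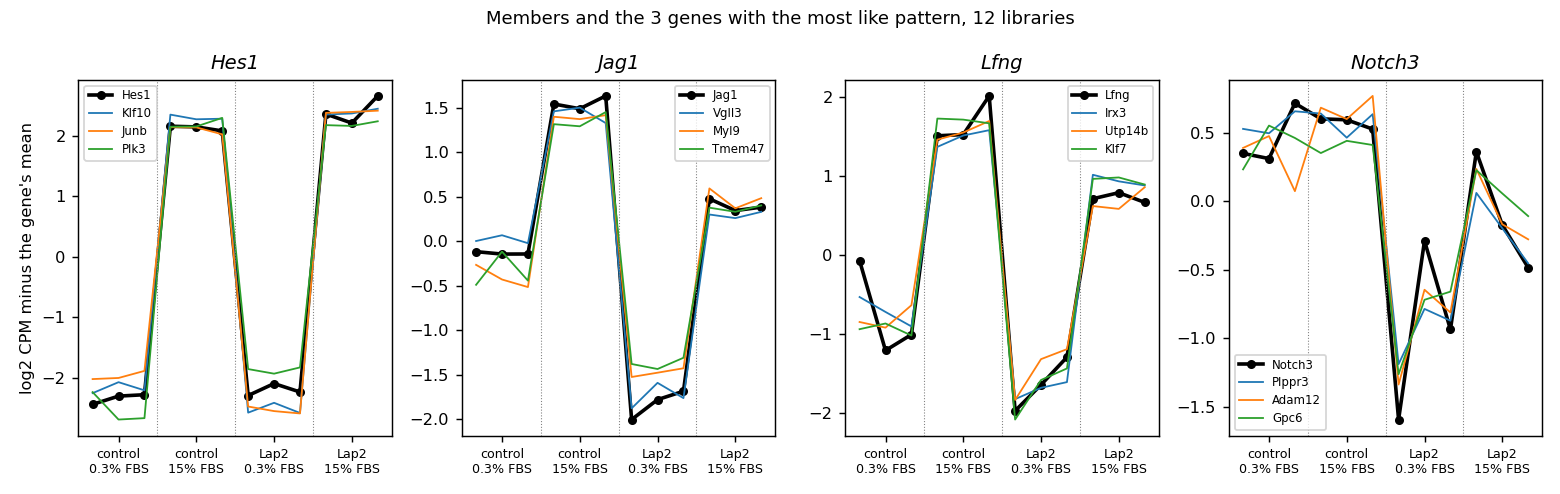
Log2 CPM minus the gene's mean over the 12 libraries (x axis, by group) for Hes1, Jag1, Lfng and Notch3 (black) and for the 3 genes with the most like pattern (colours). Vgll3 followed Jag1 with a root mean square difference of 0.15. The starved Lap2-depleted libraries of Notch3 lay between -1.59 and -0.29, and the part of its low counts in this spread was not tested.

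A list of 61 other pathway genes was described beside the members, of which 60 were in the files and 53 passed the filter. With control siRNA, serum raised 8 and lowered 9 of the 53, with a median log2FC of -0.04. In Lap2-depleted cells it raised 11 and lowered 9 (median 0.04). Lap2 siRNA raised 6 and lowered 15 in 0.3% FBS (median -0.08), and raised 7 and lowered 10 in 15% FBS (median -0.05). The shares called were 32.1%, 37.7%, 39.6% and 32.1%, beside the 29.5%, 33.2%, 36.5% and 23.4% of all genes given above. This division by direction was not stable. When libraries were scaled to total counts, 3 genes were higher and 30 lower, 5 and 24, 12 and 10, and 12 and 4 in the same comparisons, and upper-quartile normalization gave 4 and 19 and 8 and 16 for serum.

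Of the 6 other ligands, 5 were tested. Dlk1, which encodes a noncanonical, Delta-like ligand, was by far the most abundant, at 153452 to 159642 normalized counts in starved and 155220 to 178536 in stimulated control cells. Lap2-depleted cells had 80411 to 81059 in 0.3% FBS and 109530 to 129778 in 15% FBS, below all control libraries. The log2FC with Lap2 siRNA was -0.95 in 0.3% FBS (SE 0.06, edgeR adjusted p = 6.1e-14) and -0.44 in 15% FBS (SE 0.06, edgeR adjusted p = 1.5e-06). Serum raised Dlk1 in Lap2-depleted cells (log2FC 0.57, SE 0.06, edgeR adjusted p = 5.1e-09), where the response exceeded that of control cells by 0.51 (SE 0.09, edgeR adjusted p = 9.4e-05). The remaining calls among ligands, named after their values were seen, were Dlk2, which rose with serum by 2.71 and 1.73 on the log2 scale with control and Lap2 siRNA (edgeR adjusted p = 1.5e-07 and 1.3e-04), and Dll1, called lower with serum under control siRNA and with Lap2 siRNA in 0.3% FBS at 0.97 to 10.8 normalized counts. Notch4, the remaining receptor, had 5.6 to 20.8 normalized counts and was called in none of the comparisons by edgeR (0 calls, 1 at an unadjusted p under 0.05).

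Of 8 genes for glycosylation and ligand endocytosis, 4 were lower and 2 higher with Lap2 siRNA in 0.3% FBS, beside 18.6% and 17.8% of all genes, and 2 were lower and 1 higher in 15% FBS, beside 12.1% and 11.4%. Mib1, a ubiquitin ligase that drives endocytosis of the ligands, was higher by 0.51 in 0.3% FBS (SE 0.07, edgeR adjusted p = 7.2e-07). In 15% FBS it was higher by 0.35 (SE 0.07, edgeR adjusted p = 4.1e-04). Of 9 genes for receptor proteolysis, 4 were lower and none higher in 0.3% FBS (0 higher at an unadjusted p under 0.05), beside the same 18.6% and 17.8%. In 15% FBS 2 were lower and 1 higher, beside 12.1% and 11.4%. Aph1b, which encodes a γ-secretase subunit, had a log2FC of -1.11 in 0.3% FBS (SE 0.21, edgeR adjusted p = 4.0e-05). It had 107 to 159 normalized counts in starved control and 39.5 to 89.6 in starved Lap2-depleted cells. Psen2, a catalytic γ-secretase subunit, was higher by 0.51 in 15% FBS (SE 0.12, edgeR adjusted p = 0.0016).

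In the nuclear complex, 3 of 9 genes were higher and none lower with Lap2 siRNA in 0.3% FBS (1 lower at an unadjusted p under 0.05), a share of 33.3% called beside 36.5% of all genes. In 15% FBS 2 were higher and 3 lower, beside 11.4% and 12.1% of all genes. Serum in Lap2-depleted cells raised 2 and lowered 5, beside 18.3% and 14.9% of all genes. Rbpj, the DNA-binding factor of the pathway, had 2470 to 2601 and 2565 to 2870 normalized counts in starved and stimulated control cells, and 4019 to 4758 and 3501 to 3973 in Lap2-depleted cells. Its log2FC was 0.80 in 0.3% FBS (SE 0.07, edgeR adjusted p = 2.4e-11) and 0.45 in 15% FBS (SE 0.07, edgeR adjusted p = 6.3e-06). These values are uncertain because a processed pseudogene, Rbpj-ps3, had 441 to 881 counts, and reads of near-identical copies may be divided between them. Maml1, a Mastermind coactivator, rose with serum by 0.61 with control siRNA (SE 0.07, edgeR adjusted p = 1.5e-08) and by 0.52 in Lap2-depleted cells (SE 0.07, edgeR adjusted p = 4.1e-07). Kat2b, an acetyltransferase, rose by 0.73 in Lap2-depleted cells (SE 0.08, edgeR adjusted p = 4.4e-09).

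Of the 11 tested co-repressor genes, 3 rose and 2 fell with serum under control siRNA, beside 15.6% and 13.9% of all genes. Among them were Tle3, a Groucho family co-repressor (log2FC 0.53, SE 0.07, edgeR adjusted p = 1.2e-07), and Cir1, a corepressor that interacts with RBPJ (-0.58, SE 0.09, edgeR adjusted p = 1.1e-06). Cir1 was higher with Lap2 siRNA in 15% FBS by 0.56 (SE 0.09, edgeR adjusted p = 5.7e-06). Dtx4 encodes a Deltex ubiquitin ligase, of the family that acts on NOTCH trafficking. It had 1228, 1435 and 1402 normalized counts in starved and 545, 628 and 548 in stimulated control cells. Lap2-depleted cells had 331, 316 and 371 in 0.3% FBS and 385, 367 and 326 in 15% FBS, so that their serum groups overlapped below all control libraries. Serum lowered it with control siRNA (log2FC -1.24, SE 0.09, edgeR adjusted p = 1.1e-13), and Lap2 siRNA lowered it by 2.00 in 0.3% FBS (SE 0.09, edgeR adjusted p = 6.9e-18) and by 0.68 in 15% FBS (SE 0.09, edgeR adjusted p = 1.2e-06). The difference of the serum responses was 1.32 (SE 0.13, edgeR adjusted p = 6.5e-09).

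Of 7 other HES and HEY genes, 2 were tested, Hes6 and Hes7. Hes6 encodes a HES family protein known as an inhibitor of HES1. It had 545 to 639 normalized counts in starved and 253 to 298 in stimulated control cells, and 403 to 492 and 323 to 338 in Lap2-depleted cells. Serum lowered it by 1.13 with control siRNA (SE 0.10, edgeR adjusted p = 3.5e-11) and by 0.49 in Lap2-depleted cells (SE 0.10, edgeR adjusted p = 2.2e-04), opposite to Hes1. The difference of these responses was 0.64 (SE 0.14, edgeR adjusted p = 0.0016). Hes5 and Hey2 had 0 counts in all 12 libraries, and of the HES and HEY genes in the files only Hes1 and Hes6 had more than 10 normalized counts in any library.

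**Figure D5:**
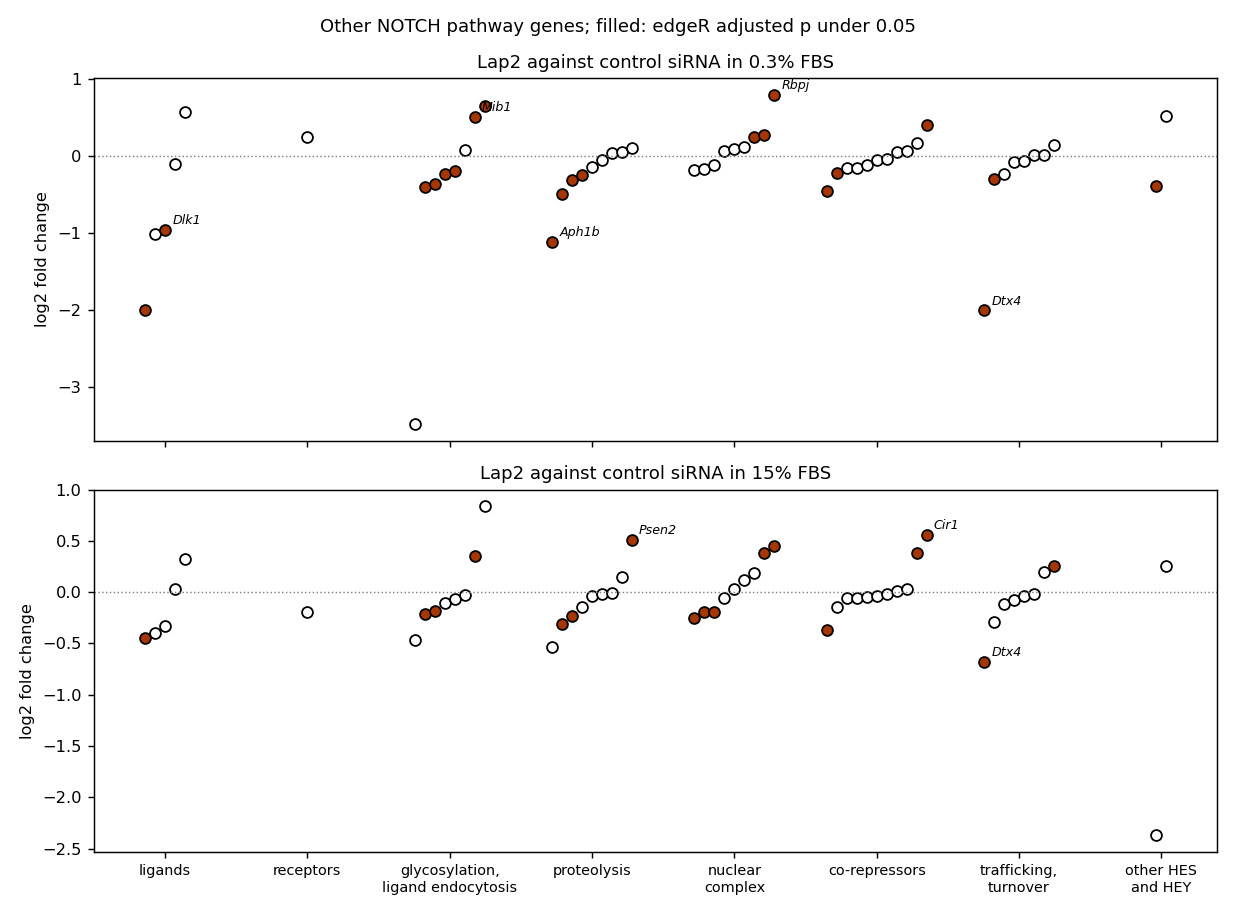
Log2 fold change with Lap2 siRNA (y axis) in 0.3% FBS (top) and 15% FBS (bottom) of the 53 tested pathway genes, by role (x axis); filled points are called at an edgeR adjusted p under 0.05 and names mark the called genes averaging 50 or more normalized counts with an absolute log2FC above 0.5. Dtx4, Aph1b and Dlk1 lie lowest among the labelled genes and Rbpj highest in 0.3% FBS.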

How the data were processed

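RNA-seq counts of 12 NIH 3T3 libraries were analysed, 3 in each of 4 groups defined by the siRNA and serum labels. The 45 min of stimulation is from the study's methods. The authors aligned reads of rRNA-depleted, directional libraries with TopHat2 to mm10, used HTSeq to count them per gene and deposited the counts as they were, not normalized. The versions, the annotation and the strand setting of the counting are not given in the sources used here. Without the strand setting, reads of overlapping genes on opposite strands cannot be assigned with certainty.

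From the counts, 18668 genes that had more than 1 count in 3 or more libraries were tested in R 4.3.3 with edgeR 4.0.16 (TMM, a mean for each group, glmQLFit and glmQLFTest, Benjamini-Hochberg adjustment over all of these genes, threshold 0.05). The 5 comparisons were 15% against 0.3% FBS for either siRNA, Lap2 against control siRNA at either FBS level, and the difference of the serum responses. Standard errors (SE) are of the log2FC, and SD is over 3 libraries. Levels per length used merged GENCODE M21 exons. Genes with like patterns were ranked on log2 CPM with a prior count of 2, leaving out predicted genes (Gm and Rik names). Of the pathway list, genes with an adjusted p under 0.05, an absolute log2FC above 0.5 and a mean of at least 50 normalized counts were named, at most 6 in a comparison, and members with an absolute log2FC above 1 in a call have values for every library. Figures used matplotlib 3.10.9. On simulated counts for serum with control siRNA (18085 genes, of which 200 were given a log2FC of 1), the test called 84% of the 200 and 17 others. The 200 were drawn from genes with a mean above 0.5 CPM, and all other genes were left unchanged. The figure therefore does not cover genes as low as Hey1 or data in which many genes change.

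The members and lists were chosen with earlier results of these data known. Same-numbered libraries did not deviate together (correlations from -0.03 to 0.05), so the numbers were not used as pairs. The alternatives were DESeq2 1.42.0, 2 other scalings, 3 other filters on low counts, a block for the replicate number, fits restricted to the 2 groups, and each library left out. At 18026298 to 26265253 counts per library, intervals and limits cover counting error and the spread between libraries only.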

Additional observations from a re-analysis of the deposited data

Results flagged for a closer look

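The serum responses with Lap2 and control siRNA differed for 2 of the 7 tested members and for 6 of the named pathway genes. These calls are from the test of the difference itself (edgeR adjusted p under 0.05). The named genes were picked by their calls, this comparison among them. Of all 53 tested genes of the pathway list, 10 (18.9%) were called here, beside 13.6% of all genes. The difference, as the log2 response with Lap2 siRNA minus that with control siRNA, was 0.54 for Jag1 and -0.35 for Notch2 (95% intervals 0.32 to 0.75 and -0.57 to -0.13). For the other genes it was 1.32 for Dtx4, 0.64 for Hes6, 0.51 for Dlk1, 0.39 for Cir1, 0.37 for Kat2b and -0.35 for Rbpj. Jag1, Dlk1 and Dtx4 were lower with Lap2 than with control siRNA at either FBS level. Hes1, with the strongest serum response of the members, had no called difference (0.16, 95% interval -0.25 to 0.57). Outlying libraries were not tested for, since each group had 3. Lap2 siRNA 0.3% FBS replicate 1 had the lowest normalized counts of its group for each tested member. Its mitochondrially encoded share, 3.95%, was the highest of any library. Leaving it out is among the alternatives below.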

How the results depend on the processing

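Over the 7 tested members and 5 comparisons, 683 values of 20 alternatives were computed. Of these, 622 kept their direction and their side of the threshold, 15 lost a call, 6 gained one and 40 changed sign, and no called value changed sign (0). Every Jag1 value was among the 622. Scaling to total counts moved the median log2FC of all genes by -0.21 and -0.23 for serum with control and Lap2 siRNA and by 0.11 for Lap2 siRNA in 0.3% FBS, and upper-quartile normalization by -0.11 for serum with Lap2 siRNA. Under scaling to total counts, serum with control siRNA called 5 members (3 higher, 2 lower) instead of 3, and 33 of the other pathway genes (3 higher, 30 lower) instead of 17. With each library left out in turn, these counts ranged from 3 to 3 and from 11 to 20, the lowest without control 15% FBS replicate 1. The counts for the difference of the serum responses ranged from 1 to 2 (2 with all libraries) and from 5 to 14 (10 with all libraries), with 5 without control 0.3% FBS replicate 3 or without Lap2 15% FBS replicate 1.

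The changes of sign were in uncalled values. Apart from those of Hey1, whose standard errors were above 1, and of the Lfng difference with libraries left out, the largest was -0.21. The log2FC of Notch3 for serum with control siRNA was -0.091 under scaling to total counts. That of Notch1 for serum with Lap2 siRNA was -0.21 under scaling to total counts, -0.087 under upper-quartile normalization and -0.13 to 0.11 with libraries left out. For Lap2 siRNA in 15% FBS Notch1 had -0.011 by DESeq2, -0.0072 with filterByExpr, -0.0084 with a count above 1 in every library, -0.0078 with any count, -0.0086 in the fit of the 2 groups, and -0.026 to 0.022 with libraries left out. For Lap2 siRNA in 0.3% FBS it had -0.24 to 0.0070, and for the difference of the serum responses -0.017 to 0.23, with libraries left out. The difference for Lfng was -0.024 by DESeq2, -0.018 under scaling to total counts, -0.013 under upper-quartile normalization, -0.0014 with filterByExpr, -0.0043 with a count above 1 in every library, -0.0017 with any count, and -0.47 to 0.20 with libraries left out. With libraries left out, Hey1 ranged from -0.97 to 0.86 and from -0.91 to 0.25 for serum, from -0.92 to 0.063 and from -1.70 to 0.29 for Lap2 siRNA, and from -1.19 to 0.81 for the difference. The cause of these changes was not tested.

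With the replicate number as a block, each comparison kept its count of members, at 3, 5, 3, 4 and 2, and no call on a member changed. The block moved the count of all genes called from 5512, 6197, 6810, 4375 and 2540 to 5509, 6121, 6756, 4343 and 2553. The numbers are only shared labels. Hey1 could not be tested with a count above 1 in every library or with filterByExpr. Heyl and Nrarp were at 0 and Hey1 at 8 counts or fewer, so this depth limits what can be said of them.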
